A study of Mus musculus with 24 samples.

Results

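The late dark step compared hearts taken at ZT23 with hearts taken at ZT19 in mice homozygous for the Clock delta 19 mutation. It covers 8 of the 24 hearts of the series, chosen by the time point in their labels: 4 hearts at ZT23 and 4 hearts at ZT19. Mice lived under 12 h light and 12 h dark, and zeitgeber time (ZT) is the number of hours since the lights came on, so ZT23 lies at the end of the dark phase and ZT19 lies 4 h before it. All hearts came from male mice aged 8 weeks, the tissue is labelled myocardium, and every mouse, at ZT23, at ZT19 and at the other times, carried Clock delta 19/delta 19. No comparison below is between genotypes, since hearts of wild-type mice were not analysed here. The mutation is carried by every cell of the mouse, not by heart muscle alone, and the genetic background and litters of the mice are not given in the sources used here. Each heart was measured on 1 single-colour Affymetrix array. Each value is the log2 distance (the base of the log is assumed) from the feature's own median over the 24 hearts. A value below 0 therefore means below that median and says nothing of how abundant a transcript is. The number of arrays limits the precision of every comparison.

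In the circadian clock of mammals, CLOCK and its partner BMAL1, coded by Arntl, bind E-box sequences and switch on the Per and Cry genes, whose proteins in turn shut CLOCK and BMAL1 down. A second loop joins the first through the nuclear receptors: REV-ERB proteins, coded by Nr1d1 and Nr1d2, repress Arntl, and ROR proteins activate it at the same DNA element. In delta 19 mice 1 exon is skipped, and the shortened CLOCK can pair with BMAL1 but is a poor activator of transcription. In the normal mouse heart the clock times genes of fatty acid and glucose use, of potassium channels and of growth, and mice are active and feed in the dark phase.

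With all 8 hearts, 0 of 22180 genes (0%) differed between ZT23 and ZT19 after Benjamini-Hochberg adjustment of limma's moderated test. At an unadjusted p under 0.05, 646 genes (2.91%) were higher and 924 genes (4.17%) lower at ZT23, 1570 in all. All 4 ZT23 hearts lay above all 4 ZT19 hearts in 341 genes (1.54%) and below them in 442 genes (1.99%). The smallest adjusted p was 0.0611, reached by Slc24a3 and Slc46a3, and both were lower at ZT23. One ZT19 heart, replicate 2, had clock gene values far from the other ZT19 hearts, so the fit was repeated without it. Without ZT19 replicate 2, 3 genes passed and all 3 fell at ZT23 (0.0135%): Slc46a3, Hsbp1 and Zbtb38. At an unadjusted p under 0.05 that fit had 599 genes higher (2.7%) and 956 lower (4.31%). The 3 calls depended on which other hearts were kept. The count was 0 when ZT19 replicate 3, ZT19 replicate 4, ZT23 replicate 1, ZT23 replicate 2 or ZT23 replicate 4 was left out as well, and 3 other genes (Acsm5, Capns1 and Cbr2, named after their values were seen) passed in their place without ZT19 replicate 1. Without ZT23 replicate 3 Slc46a3 and Zbtb38 still passed and Hsbp1 did not. With ZT19 replicate 2 kept, leaving out ZT19 replicate 3 gave 1 call (Slc46a3), ZT19 replicate 4 gave 1 (Slc24a3) and ZT23 replicate 3 gave 2 (Arel1 and a gene model without a proper symbol).

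Slc46a3, which codes for a transporter of the lysosomal membrane, had values of -0.25, -0.15, -0.084 and -0.093 in the 4 ZT23 hearts, against 0.22, 0.65, 0.14 and 0.26 in ZT19 replicates 1 to 4. Every ZT23 heart was below the gene's median and every ZT19 heart above it, with ZT19 replicate 2 the highest. The difference was -0.46 ± 0.076 (SE) with all hearts and -0.35 ± 0.053 without ZT19 replicate 2, where the adjusted p in limma was 0.0456. Over the alternative settings of the fit without that heart, the adjusted p of Slc46a3 ran from 0.0185 to 0.514.

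Hsbp1 codes for a small protein that binds heat shock factor 1 and dampens it. Its values were -0.091, -0.14, -0.093 and -0.075 in ZT23 hearts, against 0.22, 0.19 and 0.29 in ZT19 replicates 1, 3 and 4 and -0.044 in ZT19 replicate 2. The ZT23 hearts lay close together, and ZT19 replicate 2 sat nearer to them than to the other ZT19 hearts. Hsbp1 fell by 0.33 ± 0.054 (SE) without that heart (adjusted p in limma 0.0466), while with it the difference was -0.26 ± 0.061 (adjusted p = 0.247). Zbtb38, which codes for a zinc finger protein that binds methylated DNA, was at -0.12, -0.12, 0.011 and -0.15 in ZT23 hearts, against 0.22, 0.022, 0.27 and 0.16 in ZT19 hearts. Here ZT19 replicate 2 was the lowest of its group, and ZT23 replicate 3 the highest of its own. The difference was -0.31 ± 0.051 without ZT19 replicate 2 (adjusted p in limma 0.0466) and -0.26 ± 0.053 with it (adjusted p = 0.142). Over the alternatives of the same fit the adjusted p ran from 0.0343 to 0.514 for Hsbp1 and from 0.0228 to 0.514 for Zbtb38. Tpgs2, for a subunit of the enzyme complex that adds glutamate chains to tubulin, missed the threshold at -0.32 ± 0.053 (adjusted p = 0.051 in limma).

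The 10 genes of smallest p that were lower at ZT23 did not pass with all hearts. Slc24a3, for a potassium-dependent exchanger of sodium and calcium, was at -0.20, -0.068, -0.088 and -0.096 in ZT23 hearts and 0.16, 0.17, 0.17 and 0.054 in ZT19 hearts. Its groups did not overlap, and the difference of -0.25 ± 0.041 hardly moved without ZT19 replicate 2 (-0.24). Without ZT19 replicate 4, the lowest of the ZT19 hearts, Slc24a3 was the 1 gene that passed. Mtdh, for metadherin, a protein best known from tumour biology, had the lowest ZT23 values of the 10 genes, at -0.64, -0.43, -0.45 and -0.72 against -0.18, -0.11, 0.035 and 0.013 in ZT19 hearts. All ZT23 hearts stood well below all ZT19 hearts, and the difference was -0.50 ± 0.091 (SE, adjusted p = 0.0774 in limma). Smad2, which carries signals of the TGF-beta receptor to the nucleus, was at -0.065, -0.028, -0.15 and -0.094 in ZT23 hearts and 0.087, 0.32, 0.17 and 0.13 in ZT19 hearts. The highest of these, ZT19 replicate 2, added to the difference, which was -0.26 with that heart and -0.21 without it.

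Slc19a2, for a thiamine transporter, had -0.085, -0.019, -0.24 and -0.068 in ZT23 hearts and 0.091, 0.14, 0.18 and 0.24 in ZT19 hearts (difference -0.27 ± 0.050, adjusted p = 0.0885 in limma). Arhgap20 had -0.31, -0.22, -0.26 and -0.47 at ZT23 and -0.030, 0.047, 0.083 and 0.090 at ZT19 (difference -0.36 ± 0.070). For both genes the 4 ZT23 hearts lay below the 4 ZT19 hearts with a clear gap. Sypl, for a vesicle membrane protein related to synaptophysin, differed by -0.38 ± 0.077 and Tpgs2 by -0.28 ± 0.052. Arel1, for a ubiquitin ligase, differed by -0.23 ± 0.043 as the mean of 2 features that did not move alike. One feature of Arel1 differed by -0.46 and the other by -1.9e-04, so the value of this gene rests on 1 feature.

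**Figure D1:**
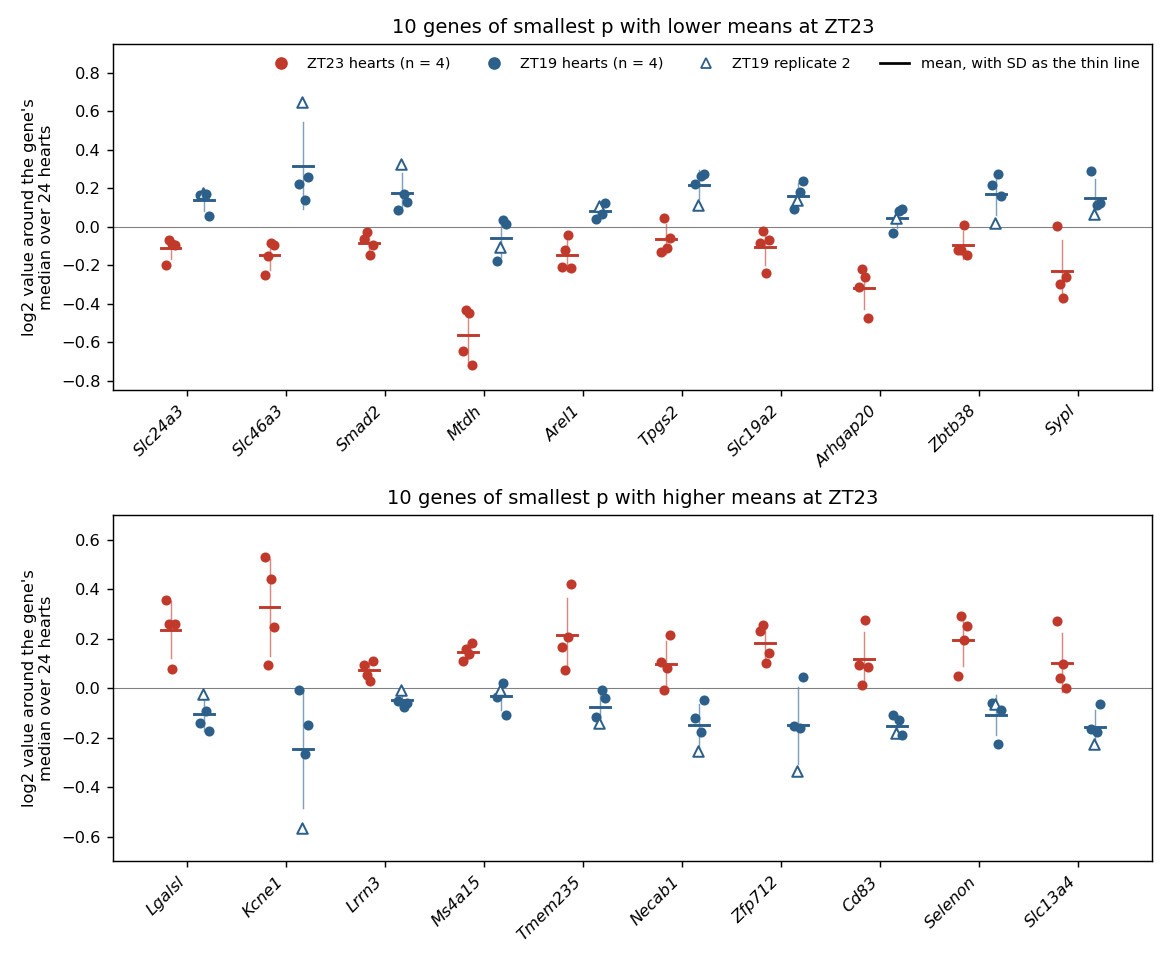
Values of single hearts for the 10 genes of smallest p that were lower at ZT23 (upper panel) and the 10 that were higher (lower panel), in log2 units around each gene's median over 24 hearts. Red points are the 4 ZT23 hearts, blue points the 4 ZT19 hearts, the open triangle is ZT19 replicate 2, thick bars are means and thin lines 1 SD. The groups do not overlap in any of the 20 genes, which were chosen by their p.

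The 10 genes of smallest p that were higher at ZT23 did not pass either, and their smallest adjusted p was 0.122. Kcne1 had the largest difference of them. It codes for the small subunit that joins the KCNQ1 channel to carry the slow delayed rectifier potassium current of heart muscle. Its values were 0.53, 0.092, 0.44 and 0.25 in ZT23 hearts and -0.0061, -0.56, -0.27 and -0.15 in ZT19 hearts. All ZT23 hearts lay above the median and all ZT19 hearts below it, but the hearts were spread widely within each group. The difference was 0.57 ± 0.12 (SE, adjusted p = 0.143 in limma) and 0.47 ± 0.11 without ZT19 replicate 2, the lowest heart. Lgalsl, for a protein related to galectins, had 0.36, 0.26, 0.076 and 0.26 at ZT23 and -0.14, -0.022, -0.092 and -0.17 at ZT19 (difference 0.34 ± 0.068).

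Selenon, for a selenoprotein of the endoplasmic reticulum whose loss causes muscle disease in humans, was at 0.048, 0.29, 0.19 and 0.25 in ZT23 hearts and -0.058, -0.063, -0.23 and -0.086 in ZT19 hearts (difference 0.30 ± 0.078, adjusted p = 0.35 in limma). The other genes of this group were Cd83 (0.27 ± 0.069), a surface protein of activated dendritic cells and lymphocytes, Zfp712 (0.33 ± 0.083), Tmem235 (0.29 ± 0.069) and Slc13a4 (0.26 ± 0.067), for a sulfate transporter. Necab1, for a calcium-binding protein, differed by 0.25 ± 0.059, Ms4a15 by 0.18 ± 0.042 and Lrrn3, for a membrane protein with leucine-rich repeats, by 0.12 ± 0.027. Lrrn3 thus combined the smallest difference of the 20 genes with a small spread, as its ZT23 hearts lay between 0.027 and 0.11 and its ZT19 hearts between -0.076 and -0.0059. In the fit without ZT19 replicate 2, Kmt5c, for an enzyme that trimethylates histone H4, was among the 5 higher genes of smallest p, at 0.18, 0.17, 0.22 and 0.26 in ZT23 hearts against -0.20, -0.088 and -0.13 in ZT19 replicates 1, 3 and 4 and 0.16 in replicate 2.

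**Figure D2:**
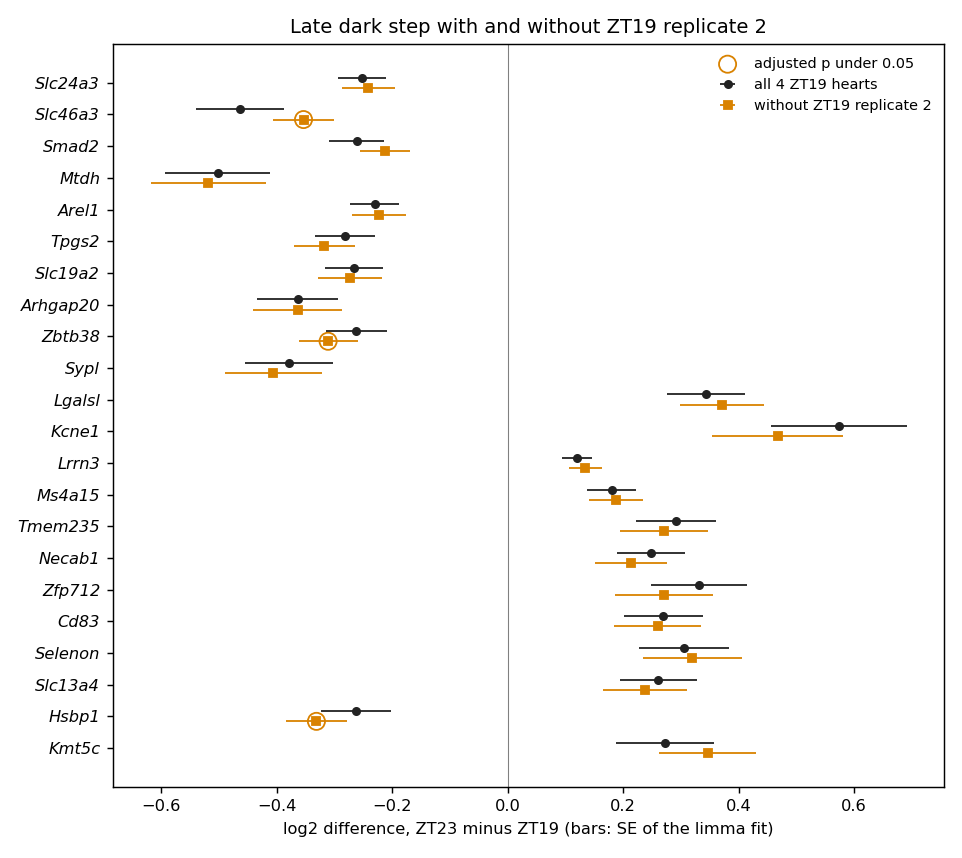
Difference of ZT23 minus ZT19 in log2 units for the 20 genes of smallest p and for Hsbp1 and Kmt5c, with bars of 1 SE of the limma fit. Black circles use all 4 ZT19 hearts and orange squares leave out ZT19 replicate 2, and rings mark the 3 genes that passed without that heart, Slc46a3, Hsbp1 and Zbtb38. Every gene keeps its direction in both fits.

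Over the 6 times of the series, 9 of the 10 lower genes had their lowest mean at ZT23 and 6 of the 10 had their highest mean at ZT19. Of the 10 higher genes, 9 had their highest mean at ZT23 and 9 their lowest at ZT19. The genes were chosen by the difference between these times, which favours such profiles, so these counts are a description. The profiles still differed in kind. In time order from ZT03 to ZT23, Mtdh had means of 0.087, -0.010, -0.027, -0.065, -0.058 and -0.56, so that ZT23 alone stood apart. Slc46a3 had 0.078, 0.014, -0.040, -0.023, 0.32 and -0.15 in the same order, with ZT19 the high point and ZT23 somewhat below the rest. Kcne1 had means between -0.029 and 0.0054 from ZT03 to ZT15, then lay at -0.25 ± 0.24 (SD, n = 4) at ZT19 and 0.33 ± 0.20 (SD, n = 4) at ZT23. Arhgap20 lay at 0.21 and 0.22 at ZT03 and ZT07, -0.12 and -0.12 at ZT11 and ZT15, 0.047 at ZT19 and -0.32 at ZT23.

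**Figure D3:**
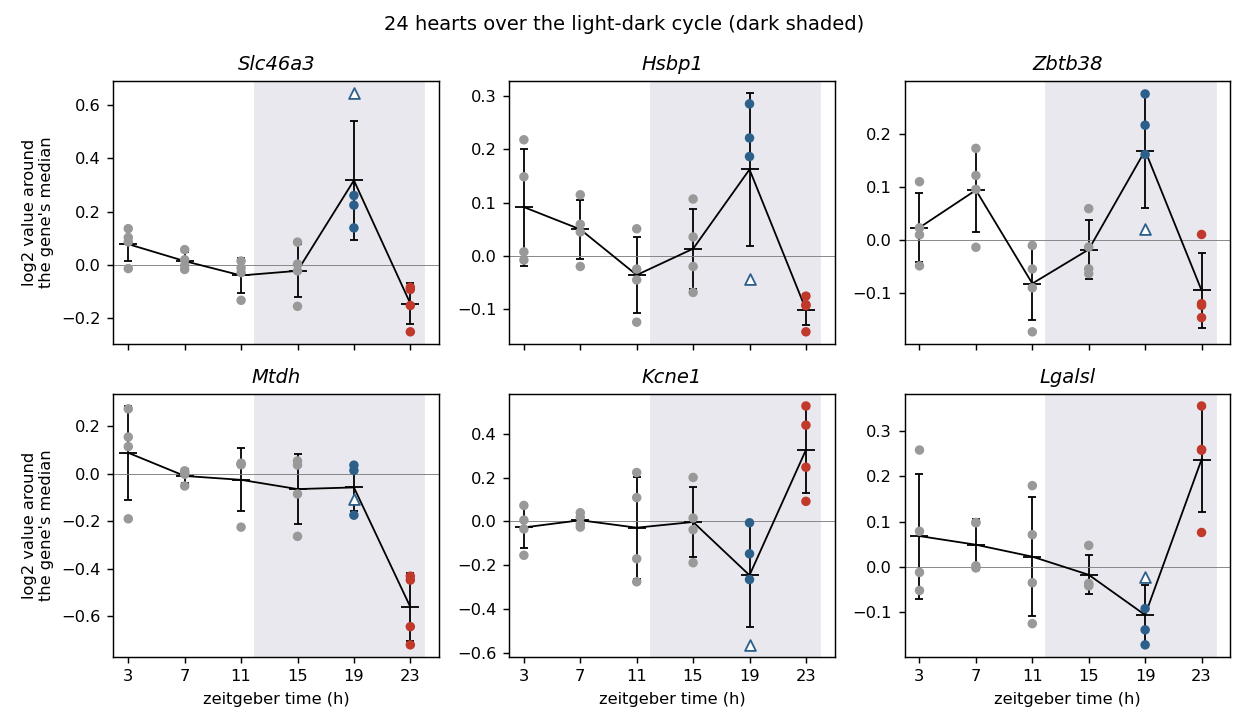
Values of all 24 hearts for Slc46a3, Hsbp1, Zbtb38, Mtdh, Kcne1 and Lgalsl against zeitgeber time in hours, in log2 units around each gene's median, with the dark phase shaded. Points are hearts, red at ZT23, blue at ZT19 and grey at other times, the open triangle is ZT19 replicate 2, and the line joins means with 1 SD. Mtdh is low at ZT23 alone, while Slc46a3 is highest at ZT19.

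The late light step, ZT11 minus ZT07, lies 12 h away and uses other hearts. A test of the late dark step minus the late light step passed for 0 genes in limma, with 1411 genes (6.36%) at an unadjusted p under 0.05. Slc19a2 and Slc24a3 had the smallest p of this test. Slc19a2 differed by -0.27 in the late dark step and 0.17 in the late light step, a difference of -0.43 ± 0.071 (SE, adjusted p = 0.0755). Slc24a3 differed by -0.25 and 0.096, a difference of -0.35 ± 0.058 (adjusted p = 0.0755). Both passed without ZT07 replicate 3. Cryab, for the small heat shock protein alpha-B crystallin, was at -0.012 ± 0.070 (SD) at ZT23 and -0.0014 ± 0.090 (SD) at ZT19, so its late dark step was -0.011 ± 0.056 (SE), with a sign that depended on single hearts and on which of its 2 features was read. In the late light step Cryab differed by 0.43 ± 0.056, and the steps differed by -0.45 ± 0.080 (adjusted p in limma 0.121).

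Klf15, for a transcription factor of cardiac metabolism that glucocorticoids induce, differed by -0.30 ± 0.068 in the late dark step and 0.20 ± 0.068 in the late light step. Its difference between the steps was -0.50 ± 0.096 (adjusted p = 0.231 in limma). Snord13, a small nucleolar RNA, had the largest such difference of the named genes, -1.40 ± 0.28 (adjusted p = 0.28). Its ZT23 hearts were spread from -0.84 to 0.13, against 0.20 to 0.44 in ZT19 hearts. On the other side, Nlrp10 (0.52 ± 0.11), of the family of NOD-like receptors, and Senp6 (0.41 ± 0.094), for a protease that removes SUMO chains, had late dark steps of 0.090 and 0.21 against late light steps of -0.43 and -0.20. Krba1 (0.36 ± 0.079) and Smim14 (0.30 ± 0.070) had late dark steps of 0.17 and 0.071 and late light steps of -0.18 and -0.23. Arhgap20, in contrast, was on the lower side in both steps, at -0.36 in the late dark and -0.34 in the late light (adjusted p in limma 0.988 for the difference between steps).

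Of 31 listed clock genes 27 were measured, and 0 of the 27 passed over all genes in limma, with or without ZT19 replicate 2. At an unadjusted p under 0.05, 4 were higher at ZT23 (Arntl, Clock, Npas2 and Nfil3) and 5 lower (Per3, Nr1d2, Rora, Bhlhe41 and Wee1), where 2.91% and 4.17% of all genes were. Without ZT19 replicate 2 the higher genes were 3 (Arntl, Npas2 and Nfil3) and the lower genes 3 (Per3, Nr1d2 and Wee1), beside 2.7% and 4.31% of all genes. The median difference of the 27 genes was -0.035 with all hearts and -0.017 without that heart, and that of all genes was -0.0025 and -0.0024.

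RefSeq promoters, in the GRCm38.p6 build and reaching from 250 bases before to 50 bases after the start of transcription, were found for 24 of the 27 clock genes. They were searched on both strands for CACGTG (the E-box bound by CLOCK and BMAL1) and CACGTT (a variant E-box). Further motifs were TTATGTAA and TTACGTAA (D-boxes, bound by DBP, TEF, HLF and NFIL3) and TAGGTCA (the element of ROR and REV-ERB). GAANNTTC, which is part of a heat shock element, was searched for as well. No matches of different motifs overlap in the promoters printed. The E-box was in 5 of the 24 and in 7.15% of all 32851 promoters, the variant in 4 (4.68% of all) and TTATGTAA in 2 (0.938% of all). The ROR element was in 2 (2.61% of all), TTACGTAA in 0 (0.119% of all) and GAANNTTC in 0 (7.86% of all). A clock gene counts once if any of its promoters holds a match, whereas the percentages are of single promoters, so the units differ. The promoters below are those of clock genes with an unadjusted p under 0.05 between ZT23 and ZT19 that hold a match, then Klf15 for its place among the clock's metabolic outputs and, of the 3 genes that passed without ZT19 replicate 2, both that hold a match. They are printed with the matched letters in capitals, each 5′ to 3′ on the strand of the gene, and are given so that the values can be read beside the elements of each loop. The search also took in the genes of smallest p in each fit, 56 genes with the clock genes, of which 42 had a promoter. Of those outside the clock, 1 held the E-box (Klf15), 1 the variant E-box (Zbtb38) and 1 GAANNTTC (Slc46a3). These counts are to be read beside the shares of all promoters above. A match is not a measured binding site.

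Arntl lies on the plus strand with its promoter at chr7:113207261-113207560, and Nfil3 on the minus strand at chr13:52980990-52981289. Both hold the ROR element, which in Nfil3 reads TGACCTA because it lies on the opposite strand.
Arntl: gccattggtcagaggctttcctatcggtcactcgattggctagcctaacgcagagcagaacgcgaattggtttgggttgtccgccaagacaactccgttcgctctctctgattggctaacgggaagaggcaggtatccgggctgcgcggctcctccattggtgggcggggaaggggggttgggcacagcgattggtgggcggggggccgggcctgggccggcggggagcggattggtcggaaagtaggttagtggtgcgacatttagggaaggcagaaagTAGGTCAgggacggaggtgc
Nfil3: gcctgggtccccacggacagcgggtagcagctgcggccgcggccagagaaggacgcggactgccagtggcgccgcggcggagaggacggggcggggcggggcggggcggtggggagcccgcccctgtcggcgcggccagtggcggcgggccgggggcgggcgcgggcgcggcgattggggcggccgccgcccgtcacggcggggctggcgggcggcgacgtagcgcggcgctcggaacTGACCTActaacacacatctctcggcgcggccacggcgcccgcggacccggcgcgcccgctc

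Per3, on the minus strand at chr4:151044616-151044915, holds 2 D-boxes.
Per3: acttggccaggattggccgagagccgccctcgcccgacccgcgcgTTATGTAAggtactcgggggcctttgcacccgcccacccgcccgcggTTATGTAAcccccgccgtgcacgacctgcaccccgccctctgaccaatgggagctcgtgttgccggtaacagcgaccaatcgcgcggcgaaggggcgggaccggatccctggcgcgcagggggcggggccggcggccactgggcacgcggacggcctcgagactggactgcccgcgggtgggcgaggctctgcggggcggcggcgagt

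Bhlhe41, on the minus strand at chr6:145865371-145865670, holds 1 E-box, and Klf15, on the plus strand at chr6:90462326-90462625, holds 3.
Bhlhe41: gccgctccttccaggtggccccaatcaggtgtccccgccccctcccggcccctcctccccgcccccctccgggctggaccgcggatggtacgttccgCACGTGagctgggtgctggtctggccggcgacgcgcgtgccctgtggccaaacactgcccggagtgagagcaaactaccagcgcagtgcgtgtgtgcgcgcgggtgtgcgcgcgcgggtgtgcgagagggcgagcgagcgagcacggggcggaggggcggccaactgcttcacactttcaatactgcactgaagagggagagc
Klf15: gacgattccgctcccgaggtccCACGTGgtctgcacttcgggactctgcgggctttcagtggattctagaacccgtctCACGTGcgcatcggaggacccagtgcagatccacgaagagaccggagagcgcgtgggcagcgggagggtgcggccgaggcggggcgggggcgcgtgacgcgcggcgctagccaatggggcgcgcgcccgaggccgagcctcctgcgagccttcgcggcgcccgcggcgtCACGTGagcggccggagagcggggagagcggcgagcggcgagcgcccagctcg

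Slc46a3, on the minus strand at chr5:147894766-147895065, holds 2 matches of GAANNTTC, and Zbtb38, on the minus strand at chr9:96731626-96731925, holds 1 variant E-box.
Slc46a3: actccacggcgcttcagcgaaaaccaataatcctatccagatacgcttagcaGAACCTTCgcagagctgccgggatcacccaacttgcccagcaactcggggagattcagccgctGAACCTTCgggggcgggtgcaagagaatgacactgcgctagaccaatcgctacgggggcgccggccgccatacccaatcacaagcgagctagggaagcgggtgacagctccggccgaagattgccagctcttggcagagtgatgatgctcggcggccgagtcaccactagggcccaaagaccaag
Zbtb38: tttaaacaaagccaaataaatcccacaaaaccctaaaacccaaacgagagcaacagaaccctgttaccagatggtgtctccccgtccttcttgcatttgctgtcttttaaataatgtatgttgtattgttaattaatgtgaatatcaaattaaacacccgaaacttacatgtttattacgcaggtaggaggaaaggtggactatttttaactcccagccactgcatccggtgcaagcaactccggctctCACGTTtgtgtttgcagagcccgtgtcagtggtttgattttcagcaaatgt

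Among the activators of the loop, 3 of 4 measured genes were higher at ZT23 at an unadjusted p under 0.05. Arntl had 0.30, 0.25, 0.26 and 0.074 in the ZT23 hearts and -0.33, -0.83, -0.029 and 0.24 in ZT19 replicates 1 to 4. All ZT23 hearts were above the median, with replicate 4 the lowest, whereas the ZT19 hearts covered a wide range, and ZT19 replicate 4 lay within the ZT23 range. The difference was 0.46 ± 0.15 (SE, adjusted p = 0.52 in limma) with all hearts and 0.26 ± 0.11 without ZT19 replicate 2, a change of more than 1.5 times. Clock, the mutated gene itself, had -0.0041, 0.11, 0.13 and 0.11 at ZT23 and 0.014, -0.60, -0.011 and -0.060 at ZT19. Outside ZT19 replicate 2 the hearts of both times lay near the median, and the difference of 0.25 ± 0.093 became 0.11 ± 0.055 without it (unadjusted p = 0.0669 in limma). Where the probes of Clock lie was not known here, and these values check nothing about the deleted exon.

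Npas2, a paralog of Clock that can take its place beside BMAL1, did not rest on that heart. It had 0.25, -0.21, 0.0049 and 0.14 in ZT23 hearts and -0.22, -0.31, -0.19 and -0.27 in ZT19 hearts. All ZT19 hearts were low and close together, while ZT23 replicate 2 was as low as they were. The difference was 0.29 ± 0.089 with all hearts and 0.27 ± 0.098 without ZT19 replicate 2 (adjusted p in limma 0.492 and 0.582). The paralog of Arntl, Arntl2, differed by 0.032 ± 0.079 (0.060 ± 0.086 without that heart).

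Of the 7 listed repressors 6 were measured, and Per2 had no value here. Of these 6, 0 were higher and 1 lower at an unadjusted p under 0.05. Per3 was at -0.14, -0.11, -0.048 and 0.022 in ZT23 hearts and -0.010, 0.93, 0.23 and 0.010 in ZT19 hearts. ZT19 replicate 2 was far above all others, and the difference was -0.36 ± 0.13 with it and -0.14 ± 0.059 without it (unadjusted p in limma 0.0104 and 0.0237). Per1 was at -0.21, -0.014, -0.58 and -0.29 at ZT23 and -0.14, 0.13, 0.23 and -0.20 at ZT19, with overlapping groups (difference -0.28 ± 0.18, unadjusted p = 0.136 in limma). For Cry1 the ZT23 hearts had 0.12, 0.25, 0.085 and 0.11 and the ZT19 hearts 0.22, 0.36, -0.19 and 0.32. The difference of Cry1 was -0.035 ± 0.12, well inside the spread of the ZT19 hearts, and its sign changed to 0.027 without ZT19 replicate 2. Cry2 differed by -0.16 ± 0.099 with all hearts and by -0.034 ± 0.080 without that heart, which was at 0.45. Ciart, which represses CLOCK and BMAL1, differed by 0.061 ± 0.036, and Timeless by 0.052 ± 0.062.

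Of the 4 measured genes of REV-ERB and ROR receptors 0 were higher and 2 lower. Nr1d2 had -0.64, -0.18, -0.19 and -0.21 in ZT23 hearts and 0.018, 0.67, -0.046 and -0.094 in ZT19 hearts. All ZT23 hearts lay below all ZT19 hearts, but 1 heart of each group stood far out, ZT23 replicate 1 on the low side and ZT19 replicate 2 on the high side. The difference of Nr1d2 was -0.45 ± 0.14 with all hearts and -0.27 ± 0.12 without ZT19 replicate 2 (adjusted p in limma 0.52 and 0.675). Nr1d1 had -0.074, -0.40, 0.016 and -0.21 in ZT23 hearts and -0.22, -0.62, 0.20 and 0.0016 in ZT19 hearts. In this gene ZT19 replicate 2 was the lowest heart, not the highest. The difference of Nr1d1 was -0.0074 ± 0.13 with all hearts and -0.16 ± 0.12 without that heart (unadjusted p = 0.183 in limma). Rora, for a receptor that activates Arntl, differed by -0.13 ± 0.056 (unadjusted p = 0.0305 in limma) and, without ZT19 replicate 2, by -0.11 ± 0.060 (unadjusted p = 0.0883). Rorb differed by 0.039 ± 0.078, and by -0.017 ± 0.080 without that heart.

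Of the 6 measured regulators that pass the rhythm on to other genes 1 was higher and 1 lower. Nfil3, for a repressor at D-boxes, had 0.28, 0.53, 0.16 and 0.11 in ZT23 hearts and 0.14, -0.012, 0.12 and -0.030 in ZT19 hearts. Every ZT23 heart was above the median, with replicate 2 the highest, and the difference was 0.22 ± 0.080 with all hearts and 0.19 ± 0.088 without ZT19 replicate 2 (adjusted p in limma 0.594 and 0.685). Of the activators at the same D-boxes, Dbp differed by -0.19 ± 0.12, Tef by -0.055 ± 0.047 and Hlf by -0.13 ± 0.074, none at an unadjusted p under 0.05. The 2 features of Tef went opposite ways, -0.16 and 0.051. Leaving out ZT19 replicate 2 gave differences of -0.033 ± 0.050 for Tef and -0.082 ± 0.076 for Hlf. The value of Dbp rested on ZT19 replicate 2, at 0.62, and was -0.025 ± 0.085 without it. Bhlhe41, for a repressor that competes at E-boxes, had -0.047, -0.072, -0.017 and -0.052 in ZT23 hearts and -0.0077, 0.30, 0.15 and 0.099 in ZT19 hearts. Its ZT23 hearts were tightly grouped and lay below all ZT19 hearts, ZT19 replicate 1 by a small margin, and the difference was -0.18 ± 0.067 with all hearts and -0.13 ± 0.067 without ZT19 replicate 2 (unadjusted p in limma 0.0131 and 0.0703). The related Bhlhe40 differed by 0.12 ± 0.13.

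Wee1, for a kinase that holds back mitosis and a known target of the clock, had the largest difference of the 27 genes and was the 1 of 7 kinase, ligase and enzyme genes at an unadjusted p under 0.05. Its values were -0.039, -0.082, -0.16 and 0.084 in ZT23 hearts and -0.040, 0.87, 0.50 and 0.42 in ZT19 hearts. ZT19 replicates 2, 3 and 4 were high and ZT19 replicate 1 was level with the ZT23 hearts. The difference was -0.49 ± 0.13 (adjusted p = 0.371 in limma) and -0.34 ± 0.12 without ZT19 replicate 2. Nampt, for the rate-limiting enzyme of NAD salvage, differed by -0.25 ± 0.14, and by -0.037 ± 0.10 without that heart, which was at 0.83. Usp2, for a deubiquitinase under clock control, likewise differed by -0.16 with it and -0.014 without it. The casein kinase gene Csnk1e and the ubiquitin ligase genes Fbxl21, Btrc and Fbxw11 had differences between -0.062 and 0.035.

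**Figure D4:**
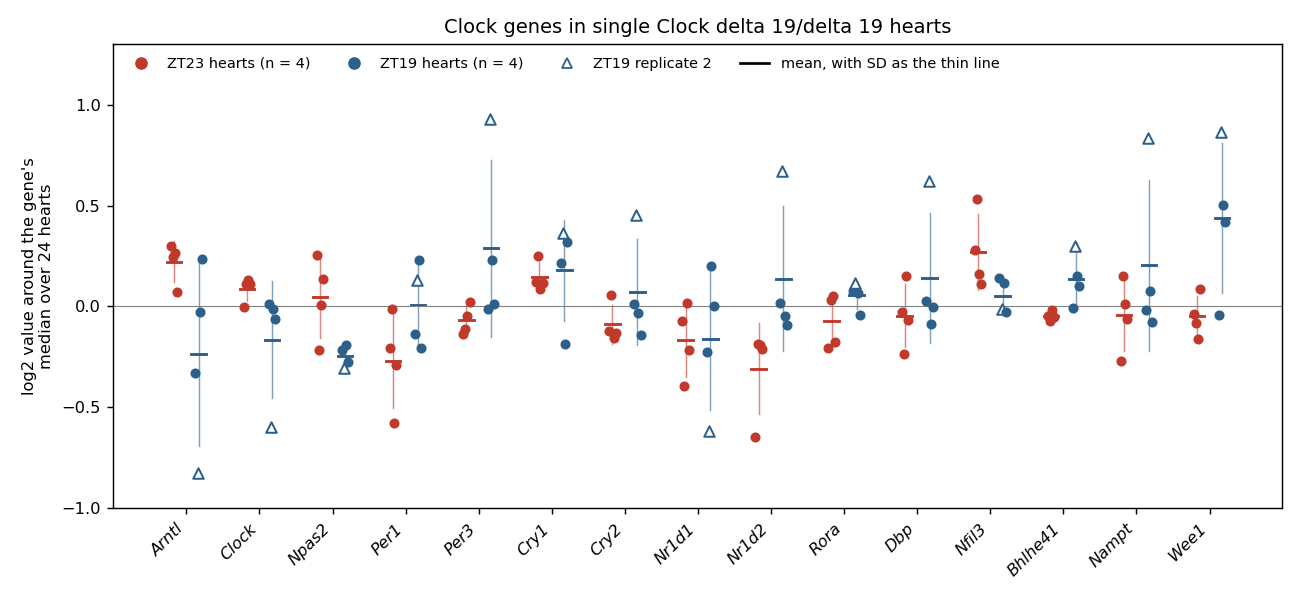
Values of single hearts for 15 clock genes in log2 units around each gene's median over 24 hearts. Red points are the 4 ZT23 hearts and blue points the 4 ZT19 hearts, the open triangle is ZT19 replicate 2, thick bars are means and thin lines 1 SD. ZT19 replicate 2 is the lowest point of Arntl, Clock, Npas2 and Nr1d1. It is the highest of Per3, Cry1, Cry2, Nr1d2, Rora, Dbp, Bhlhe41, Nampt and Wee1.

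In 18 of the 27 clock genes ZT19 replicate 2 was above or below all of the other 7 hearts, and each other heart stood apart in this way in 3 to 8. Over all genes ZT19 replicate 2 did so in 24.5%, within the 21.0% to 31.0% of the other hearts, and the SD of its values over all features, 0.107, was within their 0.0951 to 0.134. Why its clock genes differ was not tested, and these measures do not judge the quality of the sample. The clock genes of ZT19 replicate 2 were known from an earlier look at these data to stand apart. The count of 18 and the shifts that follow are therefore descriptions. Leaving ZT19 replicate 2 out moved the difference of Arntl, Clock, Per3, Nr1d2, Dbp, Tef, Hlf, Cry2, Usp2 and Nampt by over 1.5 times towards 0. It moved that of Nr1d1, Arntl2 and Fbxl21 away from 0. The sign changed for Cry1, Rorb, Csnk1e and Fbxw11, whose differences were small in both fits.

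Of the 43 gene lists, those of the clock included, 0 had a member that passed over all genes, and the smallest adjusted p of any listed gene was 0.143, for Kcne1. All list counts below are at an unadjusted p under 0.05 and are to be read beside the 2.91% of all genes that were higher and the 4.17% that were lower. Collagens and other genes of the extracellular matrix had 6 of 27 measured members higher and 2 lower, and 21 of 27 differences were above 0 (median 0.077, against -0.0025 over all genes). Col6a1 was at 0.11, 0.077, 0.094 and 0.044 in ZT23 hearts and -0.12, -0.088, -0.12 and -0.085 in ZT19 hearts. Its groups did not overlap, and its difference was 0.18 ± 0.057, the mean of 2 features at 0.090 and 0.28. Col1a1, for the main chain of type I collagen, was at 0.25, 0.034, 0.027 and -0.25 in ZT23 hearts and -0.41, -0.67, -0.24 and -0.15 in ZT19 hearts. Its lowest ZT23 heart, replicate 4, lay within the ZT19 range, and the difference was 0.38 ± 0.12 (adjusted p = 0.52 in limma). Col6a2 differed by 0.31 ± 0.10, while Dcn, for the small proteoglycan decorin, differed by -0.17 ± 0.072. Without ZT19 replicate 2 the counts were 4 higher and 1 lower, with a median of 0.045, and with each heart left out in turn 4 to 9 members were higher.

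The fibroblast markers, which share Col1a1, Col1a2, Col3a1, Dcn and Lum with this list, went both ways, with 3 of 10 higher and 2 lower. Without that heart the counts were 2 and 2. Their mean over the 10 markers lay between -0.096 and 0.022 in ZT23 hearts and between -0.16 and 0.037 in ZT19 hearts. The part of the number of fibroblasts in the collagen values was not tested. In these bulk samples fewer cells of a type and less RNA per cell cannot be told apart. Because every feature is centred, no marker level can show that a cell type was present or absent, and the labelled tissue could not be checked in this way.

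Genes of protein folding and stress in the endoplasmic reticulum had 4 of 21 measured members higher and 1 lower, Ddit3 (-0.30 ± 0.11), for the stress factor CHOP (median 0.062). The counts were 5 higher and 0 lower without ZT19 replicate 2, where Ddit3 differed by -0.21 ± 0.11 (unadjusted p = 0.0687 in limma). Pdia3, for a protein disulfide isomerase, was at 0.36, 0.26, 0.13 and 0.080 in ZT23 hearts and -0.20, -0.12, 0.032 and -0.014 in ZT19 hearts. Its groups did not overlap, and the difference was 0.28 ± 0.075 (adjusted p = 0.369 in limma). Hsp90b1, for the chaperone GRP94, differed by 0.16 ± 0.056. In both genes ZT23 replicate 1 was the highest heart, and without ZT23 replicate 1 the count of higher members was 1. The chaperones of the heat shock response had 1 of 20 higher and 3 lower, and 0 and 2 without ZT19 replicate 2. Dnajb4, for a co-chaperone of HSP70, was at -0.15, -0.044, -0.12 and 0.014 in ZT23 hearts and 0.14, 0.047, 0.19 and 0.22 in ZT19 hearts, with no overlap (difference -0.22 ± 0.051, adjusted p = 0.238 in limma). The second and the third lower gene were Bag3, a partner of HSP70 in protein clearance, named after its values were seen, and Hspb7. Hspb7, a small heat shock protein of heart muscle, differed by -0.33 ± 0.10 and Hspa4, for a member of the HSP110 family and the 1 higher gene, by 0.096 ± 0.044. Hspa4 lost that place without ZT19 replicate 2, at 0.069 ± 0.046 (unadjusted p = 0.15 in limma).

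Potassium channel genes had 2 of 15 higher and 3 lower, and 12 of the 15 differences were below 0 (median -0.057). Beside Kcne1, Kcnj11, for the pore of the ATP-sensitive channel of heart muscle, was at 0.38, 0.16, 0.31 and -0.0047 in ZT23 hearts and -0.21, -0.058, -0.16 and -0.14 in ZT19 hearts, without overlap (difference 0.35 ± 0.11, adjusted p = 0.508 in limma). Kcnj8, for the pore of the vascular form of that channel, was at 0.0021, -0.35, -0.15 and -0.20 at ZT23 and 0.11, -0.042, -0.030 and 0.0084 at ZT19 (difference -0.19 ± 0.064). The lower count was 1 without ZT19 replicate 3 or ZT23 replicate 2. Among genes of calcium handling and depolarising currents 0 of 17 were higher and 2 lower, Camk2d (-0.17 ± 0.064), for a calcium-activated kinase, and Hcn4 (-0.096 ± 0.044), for the pacemaker channel. In the fit without ZT19 replicate 2, 1 was higher and 1 lower, with Hcn4 at an unadjusted p of 0.0768 in limma.

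In the contractile apparatus, 1 of 26 members was higher and 2 were lower. Myh7, for the slow beta form of myosin heavy chain, was at 0.014, 0.071, -0.43 and -0.33 in ZT23 hearts and 0.18, 1.09, 0.0035 and 0.36 in ZT19 hearts. ZT19 replicate 2 was far above the rest, and the difference was -0.58 ± 0.18 with it and -0.35 ± 0.14 without it. Ankrd1, for a stress-responsive protein of the Z-disc and nucleus, was at -0.77, -0.69, -0.11 and 0.051 at ZT23 and 0.30, 0.10, 0.010 and 0.29 at ZT19. Its ZT23 hearts fell into a low pair and a pair near the median, and the difference was -0.55 ± 0.18 (adjusted p = 0.525 in limma). Acta1, for skeletal alpha-actin, which heart muscle also makes, was at 0.52, -0.11, 0.21 and 0.48 at ZT23 and 0.11, -0.30, -0.80 and 0.19 at ZT19, a difference of 0.47 ± 0.22, and of 0.44 ± 0.25 without ZT19 replicate 2 (unadjusted p in limma 0.0464 and 0.0893).

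Among genes of fuel use, targets of PPAR alpha and fasting genes had 0 of 24 higher and 3 lower, with 18 differences below 0 (median -0.040). Acadm, for the medium-chain acyl-CoA dehydrogenase of fatty acid oxidation, was at -0.044, -0.031, -0.054 and -0.057 in ZT23 hearts and 0.047, 0.025, 0.062 and 0.10 in ZT19 hearts. The groups did not overlap and the difference was small, -0.11 ± 0.033 (adjusted p = 0.508 in limma). Acadl, for the long-chain enzyme, differed by -0.11 ± 0.049 and Vldlr, for a lipoprotein receptor, by -0.20 ± 0.075. With ZT19 replicate 2 left out, 1 member was higher and 2 were lower, and Acadl had an unadjusted p of 0.0628 in limma. Acot2, for a mitochondrial acyl-CoA thioesterase, named after its values were seen, had the lowest difference of the list, -0.66, with an unadjusted p of 0.101 in limma. Pdk4, likewise named after its values were seen, had the highest, 0.31 ± 0.18 (unadjusted p = 0.101 in limma). All its ZT23 hearts lay above all its ZT19 hearts, and it is also on the glucocorticoid list. In triglyceride storage 0 of 17 members were higher and 2 of 17 were lower, Gpam (-0.29 ± 0.095), for the first enzyme of glycerolipid synthesis, and Abhd5 (-0.13 ± 0.058), the co-activator of triglyceride lipase. Leaving out ZT19 replicate 2, at 0.43 in Gpam, gave -0.19 ± 0.085 for this gene and counts of 2 higher and 2 lower. Glucose uptake and glycolysis had 1 of 21 higher, Pfkp (0.25 ± 0.10), and 1 lower, Gbe1 (-0.12 ± 0.050), for the glycogen branching enzyme. The higher count was 0 without ZT19 replicate 2, where Pfkp, for a phosphofructokinase, differed by 0.14 ± 0.091 (unadjusted p = 0.131 in limma). Sterol synthesis had 0 of 16 higher and 2 lower with all hearts, but 2 higher and 1 lower without that heart. The respiratory chain had 1 of 29 higher and 3 lower, with no member beyond -0.15 (Ndufb5) or 0.17 (Cox4i1).

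In the antioxidant list 0 of 23 were higher and 3 lower, Prdx3, Cat and Gsta3. Without ZT19 replicate 2 the counts were also 0 and 3, with Txn1 (named after its values were seen) in place of Gsta3. Gsta3 was at 0.61 in that heart. It differed by -0.24 ± 0.097 with that heart and by -0.10 ± 0.070 without it (unadjusted p in limma 0.0237 and 0.166). Prdx3, for the mitochondrial peroxidase, was at -0.14, -0.095, -0.096 and -0.21 in ZT23 hearts and 0.032, -0.061, 0.024 and 0.28 in ZT19 hearts, without overlap (difference -0.20 ± 0.062, adjusted p = 0.492 in limma). Cat, for catalase, was at -0.63, -0.038, 0.0015 and -0.076 at ZT23 and -0.0069, -0.0015, 0.19 and 0.55 at ZT19, where ZT23 replicate 1 was far below the other ZT23 hearts and ZT19 replicate 4 was the highest heart. The list of FoxO, atrophy and insulin signalling had 1 of 24 higher and 4 lower (1 and 3 without ZT19 replicate 2). Klf15, described above and also on the list of the glucocorticoid response, was at -0.13, -0.18, -0.20 and -0.26 in ZT23 hearts and -0.0029, 0.27, 0.16 and 0.0090 in ZT19 hearts. All ZT23 hearts were below all ZT19 hearts (difference -0.30 ± 0.068, adjusted p = 0.223 in limma). Sesn1, for a stress-induced inhibitor of mTORC1, differed by -0.33 ± 0.093 and Atg12, for a protein of autophagosome formation, by -0.26 ± 0.093. In the glucocorticoid list 0 of 18 were higher and 2 lower, the second being Lcn2 (-0.19 ± 0.064), for lipocalin 2.

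Immediate early genes had 2 of 24 higher, Nr4a2 (0.13 ± 0.048) and Atf3 (0.31 ± 0.14), and 0 lower. Without ZT19 replicate 2, 5 were higher. Cytosolic ribosomal proteins had 3 of 26 lower, the proteasome 2 of 31, SR splicing factors 2 of 13 and the interferon response 1 of 18, each with 0 higher. Hypoxia and angiogenesis had 2 of 18 higher and 0 lower, the cell cycle 1 of 17 higher and 2 lower, and natriuretic, angiotensin and adrenergic signalling 0 of 15 higher and 1 lower. Leaving out ZT19 replicate 2 gave 1 lower SR splicing factor, 1 higher gene of hypoxia and angiogenesis, 1 higher and 3 lower ribosomal genes, and 0 lower genes of natriuretic, angiotensin and adrenergic signalling. The cold-inducible gene Cirbp differed by -0.057 ± 0.081.

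Among cell type markers, the 10 of heart muscle cells had 0 higher and 0 lower, and their mean lay between -0.067 and 0.10 in ZT23 hearts and between -0.066 and 0.032 in ZT19 hearts. The 8 atrial markers also had 0 and 0, yet their mean ranged from -0.13 to 0.19 in ZT23 hearts and from -0.21 to 0.045 in ZT19 hearts. Their leading genes were spread widely within each time, as Sln, for the calcium pump inhibitor sarcolipin, was at -0.054, 0.76, -0.37 and 0.61 at ZT23 and -0.39, -0.41, -0.54 and 0.054 at ZT19. The part of the share of atrial tissue in the step was not tested. Skeletal muscle markers had 3 of 10 higher, Myh1 (0.097 ± 0.034), Ckm (0.18 ± 0.084) and Acta1, and their mean lay between 0.025 and 0.13 at ZT23 and between -0.060 and 0.021 at ZT19. Heart muscle also expresses Ckm and Acta1. Macrophage markers had 2 of 10 lower, C1qb (-0.22 ± 0.074), for a chain of complement C1q, and the Fc receptor gene Fcgr1 (-0.23 ± 0.081), with a mean between -0.082 and 0.0063 at ZT23 and between -0.025 and 0.11 at ZT19. Smooth muscle and pericyte markers had 2 of 10 higher, Acta2 (0.38 ± 0.14) and Tagln (0.18 ± 0.071), both of contractile smooth muscle, and 1 lower, Kcnj8. Of the 10 differences 5 were above 0 and 5 below (median 0.0034). The mean of these markers lay between -0.082 and 0.026 at ZT23 and between -0.064 and -0.014 at ZT19, so the times overlapped. The endothelial list had 1 higher (Kdr), the neutrophil list 1 higher (Csf3r), the list of Schwann cells and neurons 1 higher (Th) and the adipocyte list 1 lower (Cidec). Without ZT19 replicate 2 the counts were 1 higher among heart muscle markers, 2 higher and 1 lower among skeletal muscle markers, and 1 higher among smooth muscle markers, with Tagln at 0.15 ± 0.077 (unadjusted p = 0.0653 in limma). The markers of T and NK cells (8 measured), B cells (6), erythroid cells (2), platelets (4) and mesothelium (6) had 0 in either direction in the fit with all hearts. For erythroid cells only 2 of 7 listed markers were measured. Their mean lay between -0.044 and 0.022 in ZT23 hearts and between 0.023 and 0.13 in ZT19 hearts. The 2 ranges thus nearly touched, and each gene on its own had overlapping groups. Slc4a1 differed by -0.068 ± 0.072 and Bpgm by -0.063 ± 0.077. The part of blood in the step was not tested.

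**Figure D5:**
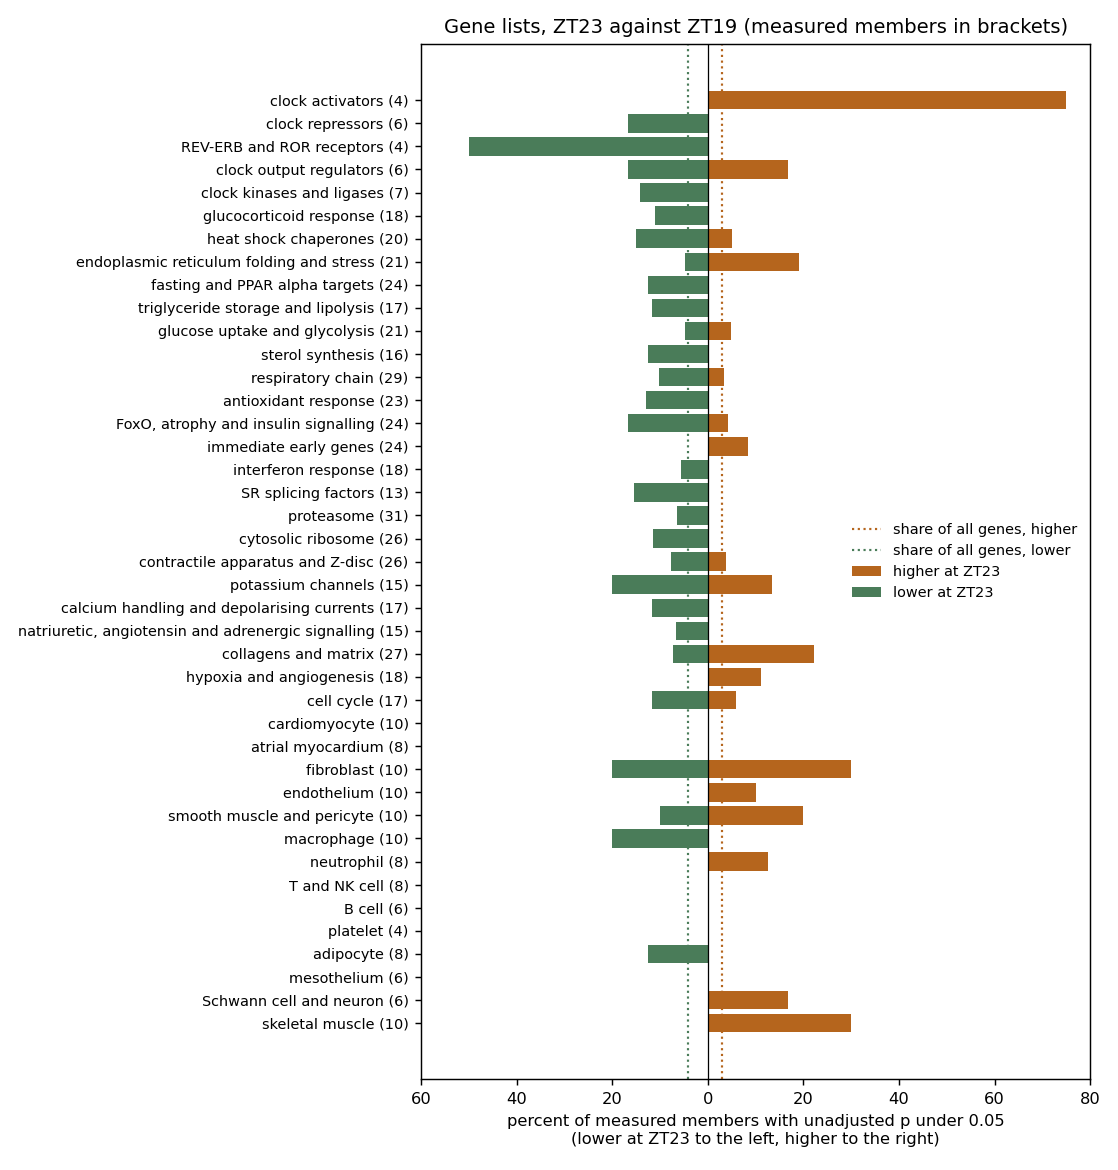
Percent of the measured members of each list with an unadjusted p under 0.05 between ZT23 and ZT19, higher at ZT23 to the right and lower to the left, with the number of measured members in brackets. Dotted lines mark the shares over all genes, 2.91% higher and 4.17% lower, and lists of fewer than 4 measured members are left out. Bars of short lists rest on 1 to 3 genes.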

How the data were processed

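Hearts of 24 mice were measured on Affymetrix arrays of a single colour, 4 at each of 6 times 4 h apart. Total RNA came from frozen hearts by TRIzol and, per the labels' protocols, biotinylated cRNA was made from 500 ng. The deposited values, taken as log2, had been centred per feature (largest absolute median 5e-07). The summarization of probes, normalization, log base and any filter are not given in the sources used here. With a natural log every size would be 1.44 times larger, and p-values would not change. Centring leaves no level, so no filter on dim features was possible.

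Of 34351 features, 23521 had 1 gene symbol in the platform annotation, 1814 several and 9016 none. Features of 1 symbol were averaged to 22180 genes, 1082 of them from 2423 features. By Entrez ID, 23328 features matched RefSeq with 0 other symbols. limma 3.58.1 in R 4.3.3 fitted 6 time-point means to 24 arrays (23 without ZT19 replicate 2). The contrasts were ZT23 minus ZT19, and that minus ZT11 minus ZT07, with Benjamini-Hochberg adjustment over all genes at 0.05. The script was tested on simulated data. Values are log2 differences with SE of the fit, or SD where named. The labels call each heart a biological replicate and do not say how the animals were related. No 2 arrays were identical.

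Named were the clock genes, per direction the 10 genes of smallest p (5 for the other fits) and up to 3 members per list. Counts include 2983 genes without a proper symbol, none of which is named. The members and lists were chosen with earlier results of these data known. Alternatives were the groups in the fit, quantile normalization, array centring, single features, array weights, a robust prior, the replicate number as a block and each heart left out.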

Additional observations from a re-analysis of the deposited data

Results flagged for a closer look

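In 218 groups of 4 hearts (109 genes at ZT23 and at ZT19), 13 held a heart whose gap to the nearest other heart, over the range of the group, was above Dixon's critical value. Chance gives about 1 in 20 groups, so 13 of 218 is near the share that chance gives. The clock genes of ZT19 replicate 2 were known from an earlier look at these data to stand apart, so its flags are no separate observation. Of these 13, 4 were ZT19 replicate 2, all in clock genes: Clock at -0.60 (nearest other ZT19 heart -0.060), Nr1d2 at 0.67 (0.018), Dbp at 0.62 (0.028) and Nampt at 0.83 (0.079). ZT23 replicate 1 stood out 3 times, in Nr1d2 at -0.64 (nearest other ZT23 heart -0.21), Cat at -0.63 (-0.076) and Clock at -0.0041 (0.11). The others were Cryab in ZT23 replicate 3 at -0.12 (0.014), Ndufb5 in ZT23 replicate 2 at -0.011 (-0.19), Timeless in ZT19 replicate 3 at -0.20 (-0.021), Zbtb38 in ZT23 replicate 3 at 0.011 (-0.12), Selenon in ZT19 replicate 3 at -0.23 (-0.086) and Slc24a3 in ZT19 replicate 4 at 0.054 (0.16).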

How the results depend on the processing

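For the difference between ZT23 and ZT19, the count of 0 genes became 4 with quantile normalization (Slc24a3, Slc46a3, Mtdh and 1 without a proper symbol), ran from 0 to 3 with each heart left out and stayed 0 under the other 6 alternatives. For the fit without ZT19 replicate 2, the count of 3 was 5 with quantile normalization, 1 with arrays centred on their median (Slc46a3) and 0 with the groups compared alone, array weights, a robust prior or single features. It ran from 0 to 3 with 1 further heart left out. For the late dark step minus the late light step, the count of 0 ran from 0 to 2 with each heart left out. Same-numbered hearts of ZT23 and ZT19 did not deviate together (correlations of -0.19, 0.013, 0.045 and -0.12), so the numbers were not taken to pair them. With the replicate block the counts were 0, 1 (Slc46a3) and 1 (Snord55). With each heart left out the difference changed sign in 9 genes, running from -0.16 to 0.027 for Cry1, -0.16 to 0.11 for Nr1d1, -0.029 to 0.10 for Arntl2, -0.042 to 0.024 for Cryab, -0.13 to 0.0019 for Csnk1e, -0.026 to 0.0097 for Fbxl21, -0.054 to 0.060 for Fbxw11, -0.14 to 0.013 for Lum and -0.018 to 0.13 for Rorb. Over 109 of the genes named in the report and 14 alternatives, 1495 values kept their direction and side of the threshold, 9 came to pass and 22 reversed. Of 10 genes followed in the fit without ZT19 replicate 2, only Slc46a3, Hsbp1 and Zbtb38 had passed in the full setting. Most of the values of these 3 genes under the alternatives, 32, missed the threshold. With 4 hearts per time and centred values, neither signal over background nor differences much below the SE given here could be judged.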
